A study of Mus musculus with 9 samples.

Results

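The nuclear-encoded genes of the mitochondrial respiratory chain were examined in 9 mouse oral tumors. They were taken as the genes whose symbol in the array's annotation starts with Nduf followed by a, b, c, s or v, with Uqcr, with Atp5, or with Cox followed by a digit in the range 4 to 8, together with Sdha, Sdhb, Sdhc and Sdhd. The rule found 90 of the 18193 genes that had a probe set with a single symbol, where a probe set is a group of short probes read as 1 signal. Each gene was read on its probe set with the highest mean log2 signal. Of the 90 genes 84 passed a filter on dim signal, as did 12167 of the 18193 genes in all.

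The respiratory chain sits in the inner mitochondrial membrane. Complex I (the Nduf genes) takes electrons from NADH and complex II (Sdha to Sdhd) takes them from succinate, complex III (the Uqcr genes) passes them to cytochrome c, and complex IV (the Cox genes) hands them to oxygen. Complexes I, III and IV pump protons, and complex V (the Atp5 genes) lets the protons flow back to make ATP. Some complex IV subunits come in a form found in most tissues and a form of heart and skeletal muscle. Tumors differ in how far they rely on this chain or on glycolysis, and p53 is known to act on both.

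By complex, the 90 genes were 6 core and 28 accessory subunits of complex I, 8 complex I assembly factors (the Ndufaf genes, which are not part of the finished complex), the 4 subunits of complex II, 8 of complex III, 14 of complex IV and 17 of complex V. The muscle isoforms Cox6a2, Cox7a1 and Cox8b were kept apart, as were Ndufa4, named for complex I but now placed in complex IV, and its paralog Ndufa4l2. The 6 genes left out as dim were Cox4i2, Cox6b2, Cox7a1, Cox7b2, Cox7c and Ndufb4. Without assembly factors and muscle isoforms 74 subunit genes were tested, and these are called the subunits here.

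The tumors arose in mice in which, by the series' title, Ras was activated and p53 altered, and all mice were 1 year old. There were 3 groups of 3 tumors. One group held p53R172H, a missense mutation, on one chromosome and a null allele on the other (p53R172H/-). Another held the same mutation beside a wild-type copy (p53R172H/+), and the last had no functional p53 gene (p53-/-). The labels write the mouse lines with the prefix K- and give neither the Ras allele nor the promoter that drives recombination, and there was no tumor with wild-type p53 alone and no normal tissue. The labels do not tie each tumor to an animal of its own. The p-values therefore cover only the scatter among the tumors at hand, part of which may be technical. Squamous epithelium markers were bright in every tumor, with a mean log2 signal of 12.40 to 12.86 over 11 genes.

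Some tumors stood apart from the rest. Of 23 skeletal muscle markers, the mean log2 signal was 6.56, 10.48 and 9.37 in p53R172H/- tumors 1, 2 and 3, 7.12, 6.40 and 8.12 in p53R172H/+ tumors and 7.53, 7.42 and 8.01 in p53-/- tumors. Ckm, the muscle creatine kinase, read 119, 2788 and 792 signal units in the p53R172H/- tumors and 104 to 298 in the other 6. Of the 20 muscle markers tested 18 were higher on average in p53R172H/- than in p53-/- tumors, as were 5328 of all 12167 genes. The p53R172H/+ tumors exceeded p53-/- tumors on average in 1 of the 20, and in 5347 of all genes. Some of the 20, such as Myh4, passed the filter on dim signal only through p53R172H/- tumors 2 and 3. Myh4 read 24.1, 4099 and 1426 signal units in the p53R172H/- tumors and 23.1 to 206 in the other 6. The count of 18 is therefore not independent of the high values in those tumors. Of 11 fibroblast markers tested, 9 were lower on average in p53R172H/- than in p53-/- tumors, with a median log2 fold change of -0.72. All 9 were lower at an unadjusted limma p under 0.05, where 9.16% of all genes were. Against p53R172H/+ tumors 10 of 11 were lower in p53R172H/- tumors (median -0.67), 9 at that p, where 2.96% of all genes were. Of 7 immune markers tested, 7 were higher on average in p53R172H/- and 6 in p53R172H/+ tumors than in p53-/- tumors. Their median log2 fold changes were 0.22 and 0.47. At an unadjusted limma p under 0.05, 0 and 4 were higher, where 6.44% and 4.75% of all genes were. The part of these other cells in the results below was not tested, apart from the muscle values given there. Tumor 2 of the p53-/- group held the highest value of the 9 tumors for 23.7% of all genes tested. Its log2 signals correlated with the other arrays at r = 0.954 to 0.973 across genes, where genes are not independent replicates. The counts by complex that these tumors move are also given without them. The array medians were 109 to 123 signal units, and precision is limited by how few arrays there are.

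At an adjusted p of 0.05 (limma, Benjamini-Hochberg over all genes tested) 0 respiratory chain genes were called in each of the 4 comparisons. Across all 12167 genes 0% passed in p53R172H/- against p53-/-, 0% in p53R172H/+ against p53-/-, 0% in p53R172H/- against p53R172H/+ and 0% in both p53R172H groups against p53-/-. Differences below are therefore given as values. The median log2 fold change of the 74 subunits was -0.05 in p53R172H/- against p53-/-, -0.02 in p53R172H/+ against p53-/- and 0.01 in p53R172H/- against p53R172H/+. Over all genes these medians were -0.03, -0.03 and -0.01. The subunits as a whole thus sat where the bulk of genes sat, and they varied little. Their median spread from the lowest to the highest of 9 tumors was 0.44 on the log2 scale, against 0.55 for all genes tested, and their median SD within groups was 0.13, against 0.16. Nearly all subunits were far brighter than the filter of 113 signal units. They were not compared with genes of like brightness, so the part of signal level in this difference was not tested.

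**Figure D1:**
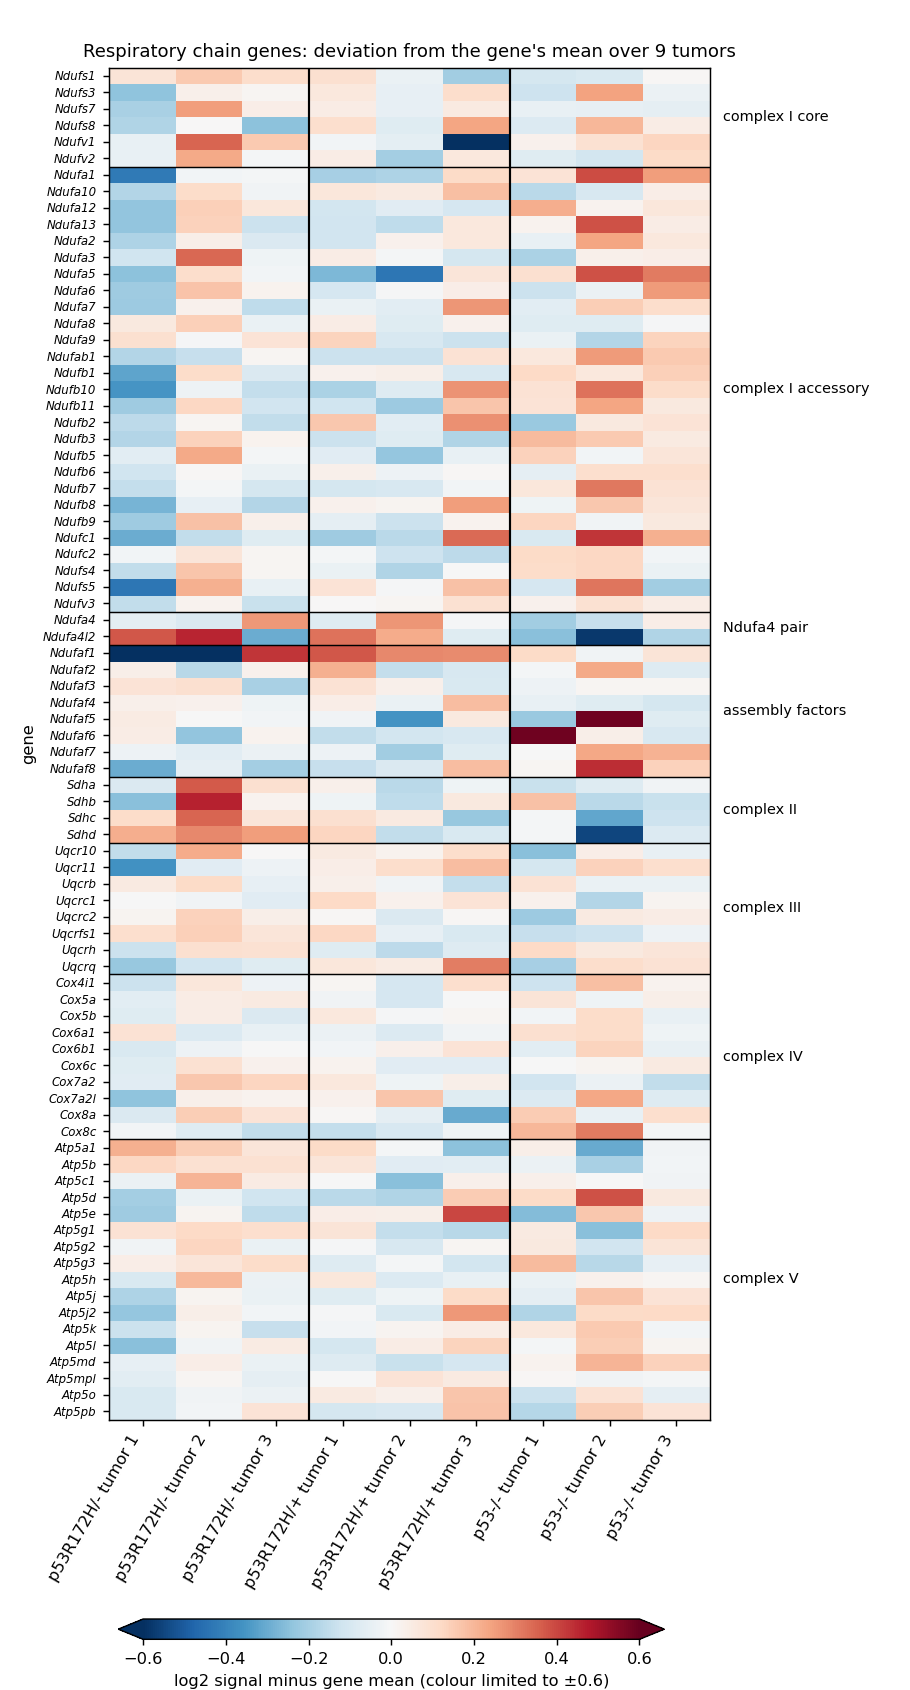
Log2 signal of the tested respiratory chain genes (rows, by complex) in the 9 tumors (columns, by genotype group), each shown as the difference from the gene's mean over all tumors in log2 units. Low values (blue) gather in the column of p53R172H/- tumor 1, where 32 of the 74 subunits had their lowest value, and complex II is high across p53R172H/- tumor 2.

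The highest and lowest values of the subunits gathered in single tumors. Variation between genotypes was not compared with variation between tumors. In p53R172H/- tumor 2, 24 of the 74 subunits (32.4%) had their highest value, against 12.3% of all genes tested, and 0 had their lowest. In p53R172H/- tumor 1, 32 subunits (43.2%) had their lowest value, against 19.1% of all genes. These were 2 tumors of the same genotype, with the highest and the second lowest level of the muscle markers. In p53-/- tumor 2, 23 subunits (31.1%) were highest, against 23.7% of all genes. The 3' to 5' ratios of the Gapdh and actin probe sets, given below, were lowest in p53R172H/- tumor 1 and highest in p53-/- tumor 2. The median subunit lay 0.12 below its mean in p53R172H/- tumor 1 and 0.08 above it in p53R172H/- tumor 2, on the log2 scale.

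Counted without adjustment, 6 of the 84 members were higher and 8 lower in p53R172H/- than in p53-/- tumors at a limma p under 0.05, where 6.44% and 9.16% of all genes were. That is 7.14% and 9.52% of the members, close to the background. Members whose 3 tumors did not overlap with the 3 of the other group numbered 7 higher and 10 lower, against 9.11% and 13.8% of all genes. The count of 8 lower members was 0 without p53R172H/- tumor 1 or without p53-/- tumor 2, 4 without p53R172H/- tumor 3, and 13 without p53R172H/- tumor 2 or p53-/- tumor 1. The count of 6 higher members was 2 without p53R172H/- tumor 2 or without p53-/- tumor 2.

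In p53R172H/+ against p53-/- tumors 1 member was higher and 10 were lower at that p, where 4.75% and 5.6% of all genes were. Groups that did not overlap were found for 6 members higher and 12 lower, against 7.08% and 8.86% of all genes. The 10 lower members, 11.9% of those tested, were 2 without p53-/- tumor 2, 3 without p53R172H/+ tumor 2, and 6 without p53R172H/+ tumor 1 or p53-/- tumor 1. The 1 higher member was Ndufa4l2, and none was left without p53R172H/+ tumor 1, without p53R172H/+ tumor 2 or without p53-/- tumor 1, while 2 were counted without p53R172H/- tumor 3. With both p53R172H groups set against p53-/-, 4 members were higher and 10 lower, where 6.84% and 9.09% of all genes were. There the lower members were 0 without p53-/- tumor 2. The higher ones were 1 without p53-/- tumor 2 or p53R172H/+ tumor 1, and 2 without p53R172H/- tumor 2 or p53R172H/- tumor 3. Both comparisons with p53-/- use the same 3 p53-/- tumors, so they are not independent of each other.

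**Figure D2:**
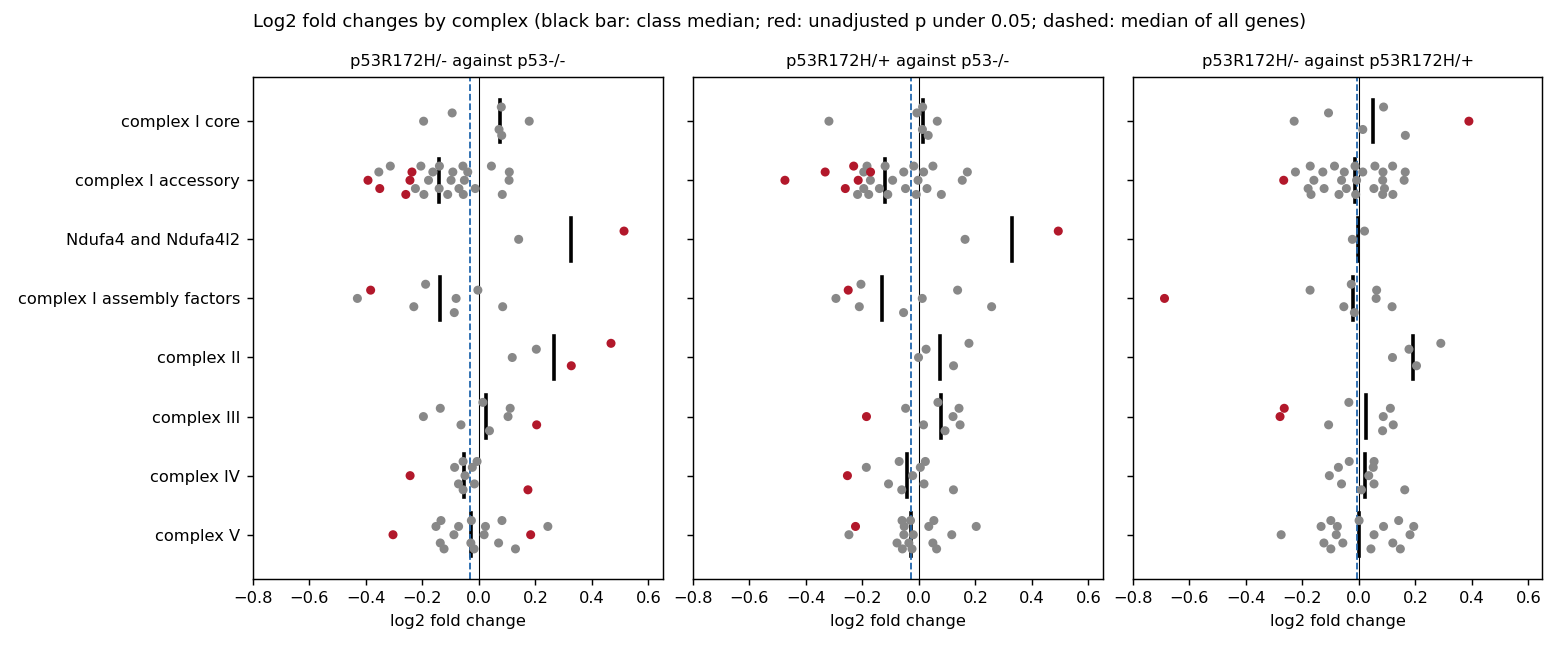
Log2 fold change of each tested respiratory chain gene (points), by complex, for p53R172H/- against p53-/-, p53R172H/+ against p53-/- and p53R172H/- against p53R172H/+, with the median of each class as a bar, points at an unadjusted p under 0.05 in red and the median of all genes as a dashed line. The muscle isoforms are left out. The accessory subunits of complex I sit mainly below zero in both comparisons with p53-/-, and complex II sits above it in p53R172H/- against p53-/-.

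Complex I had its accessory subunits mostly on the low side in both mutant groups. Of 27 accessory subunits tested, 23 were lower on average in p53R172H/- than in p53-/- tumors, with a median log2 fold change of -0.14 and 5 at an unadjusted p under 0.05, where 9.16% of all genes were lower at that p. Set against p53-/- tumors, p53R172H/+ tumors had 21 of 27 lower, with a median of -0.12 and 6 at that p, where 5.6% of all genes were. Without p53-/- tumor 2 these were 19 of 27, -0.10 and 1. Immune markers were higher on average in the same p53R172H/+ tumors, as given above. Among all genes 6839 and 6820 of 12167 were lower in these comparisons. Between the mutant groups 16 of 27 were lower in p53R172H/-, with a median of -0.01, and this turned on single tumors. Without p53R172H/- tumor 1, 10 were lower and 17 higher (median 0.06), without p53R172H/- tumors 2 and 3, 23 were lower (median -0.16), and with the muscle marker level as a covariate 22 were lower (median -0.14, 7 at that p). Without p53R172H/- tumor 1, 17 of 27 were lower in p53R172H/- than in p53-/- tumors, with a median of -0.06 and 0 at that p. Without p53R172H/- tumors 2 and 3, where 1 tumor is left in the group, 25 were lower (median -0.28, 10 at that p), and without p53-/- tumor 2, 22 were lower (median -0.11, 0 at that p). Of the 27 genes 17 had their lowest value in p53R172H/- tumor 1, and 11 had their highest in p53-/- tumor 2. Bulk tumors cannot tell fewer cells of a type from less RNA per cell, here and below.

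Ndufa1, a small subunit of the membrane arm, read 2564, 3404 and 3420.3 signal units in p53R172H/- tumors, 2999, 3032 and 3727 in p53R172H/+ tumors, and 3648, 4524 and 4095 in p53-/- tumors. All 3 p53R172H/- tumors lay below all p53-/- tumors, while p53R172H/+ tumor 3 reached into their range. Its log2 fold change was -0.39 ± 0.14 (SE) in p53R172H/- against p53-/- (limma adjusted p = 0.265) and -0.33 ± 0.14 in p53R172H/+ against p53-/- (adjusted p = 0.465). Ndufb7, an accessory subunit on the intermembrane space side, read 2021, 2215 and 2078 in p53R172H/- tumors, 2076, 2085 and 2209.8 in p53R172H/+ tumors, and 2343, 2780.4 and 2374 in p53-/- tumors. The 6 tumors with the missense allele all lay below the 3 without p53, and the 2 mutant groups covered almost the same range. Its log2 fold change was -0.24 ± 0.07 (SE) for both p53R172H groups against p53-/-, and the adjusted p of 0.237 was the lowest of any member in that comparison. On its second probe set this difference was -0.12.

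Ndufa5, an accessory subunit of the matrix arm, read 940.5, 1201 and 1105 signal units in p53R172H/- tumors, 924, 826 and 1172 in p53R172H/+ tumors, and 1194, 1453 and 1382 in p53-/- tumors. The p53R172H/+ tumors lay below all p53-/- tumors, and p53R172H/- tumor 2 overlapped with them. Its log2 fold change was -0.47 ± 0.15 (SE) in p53R172H/+ against p53-/- (limma adjusted p = 0.383) and -0.31 ± 0.15 in p53R172H/- against p53-/- (adjusted p = 0.345). Ndufb3, in the membrane arm, read 1649, 2052 and 1895 in p53R172H/- tumors, 1709, 1774 and 1646 in p53R172H/+ tumors, and 2130.0, 2082 and 1935 in p53-/- tumors. Its average was lowest and its values closest together in p53R172H/+ tumors, with a log2 fold change of -0.26 ± 0.09 (SE) against p53-/- (limma adjusted p = 0.42). Ndufab1, the mitochondrial acyl carrier protein, was lower on its brightest probe set, at -0.26 ± 0.09 (SE) in p53R172H/- against p53-/-, but its second probe set gave 0.08.

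The core subunits of complex I carry the electron path. Of 6 tested, 4 were higher on average in p53R172H/- than in p53-/- tumors (median log2 fold change 0.08), and 4 were higher in p53R172H/+ than in p53-/- (median 0.01). Without p53R172H/- tumor 2, the p53R172H/- comparison had 1 of 6 higher and 5 lower (median -0.03), as it had without p53R172H/- tumors 2 and 3 (median -0.08), and with the muscle covariate 4 of 6 were lower (median -0.02). All 6 lay above their mean in p53R172H/- tumor 2, 4 of them at their highest value, and all 6 lay below it in p53R172H/+ tumor 2. Ndufs1, the large iron-sulfur subunit of the matrix arm, read 1304, 1377 and 1331 signal units in p53R172H/- tumors, 1321, 1200.3 and 1070.5 in p53R172H/+ tumors, and 1149, 1158 and 1240.3 in p53-/- tumors. The p53R172H/- tumors were all above the p53-/- tumors, by 0.18 ± 0.09 (SE) on the log2 scale (limma adjusted p = 0.375). Ndufv1, which binds NADH, read 1867, 2452 and 2150.1 in p53R172H/- tumors, 1906, 1848 and 1243 in p53R172H/+ tumors, and 1964, 2054 and 2106 in p53-/- tumors. The low value belongs to p53R172H/+ tumor 3 alone. On the log2 scale Ndufv1 gave -0.32 in p53R172H/+ against p53-/- tumors on its brightest probe set, 0.00047 on the second and -0.68 on the dimmest, where p53R172H/+ tumor 3 read 519 signal units and the other 8 tumors 1945 to 2491.

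Of 8 complex I assembly factors, 7 were lower on average in p53R172H/- than in p53-/- tumors, with a median log2 fold change of -0.14. For p53R172H/+ against p53-/- tumors 5 of 8 were lower, with a median of -0.13. Without p53-/- tumor 2 these counts were 4 and 3 of 8. Ndufaf8 read 881, 1041 and 938 signal units in p53R172H/- tumors, 985, 1017 and 1231 in p53R172H/+ tumors, and 1092, 1469 and 1191 in p53-/- tumors. Each p53R172H/- tumor lay below all p53-/- tumors, with a log2 fold change of -0.38 ± 0.13 (SE, limma adjusted p = 0.264). Ndufaf1, which helps build the membrane arm, read 109, 123 and 266 in p53R172H/- tumors, 256, 242 and 241 in p53R172H/+ tumors, and 214, 195 and 209 in p53-/- tumors. Tumors 1 and 2 of the p53R172H/- group were low and tumor 3 was the highest of all 9, so the genotype mean of 166 ± 87.0 (SD, n = 3) describes no single tumor. The log2 fold change in p53R172H/- against p53R172H/+ tumors was -0.69 ± 0.28 (SE, limma adjusted p = 0.949).

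Complex II is also the succinate dehydrogenase of the citric acid cycle, and its genes lay on the high side in p53R172H/- tumors. All 4 genes were higher on average there than in p53-/- tumors, with a median log2 fold change of 0.26, and all 4 were higher than in p53R172H/+ tumors, with a median of 0.19. The p53R172H/+ tumors had 3 of 4 higher than p53-/- tumors, with a median of 0.07. All 4 genes had their highest value in p53R172H/- tumor 2, the tumor with the highest muscle markers, and all 4 were above their mean in p53R172H/- tumor 3. Without p53R172H/- tumors 2 and 3, 2 of the 4 genes were higher in p53R172H/- than in p53-/- tumors, with a median of 0.13, and with the muscle marker level as a covariate 3 of 4 were, with a median of 0.20. Against p53R172H/+ tumors 2 of 4 were higher without those tumors (median 0.05), 3 of 4 without p53R172H/- tumor 2 alone (median 0.09) and 3 of 4 with the covariate (median 0.10).

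Sdhd, a membrane anchor of the complex, had the lowest p of any member in p53R172H/- against p53-/- tumors. It read 1168, 1225 and 1193 signal units in p53R172H/- tumors, 1097, 905 and 940.1 in p53R172H/+ tumors, and 996, 685 and 947 in p53-/- tumors. The p53R172H/- tumors were close together and above all other 6 tumors, and p53-/- tumor 2 was the lowest of the 9. The log2 fold change was 0.47 ± 0.14 (SE, limma adjusted p = 0.246) against p53-/- and 0.29 ± 0.14 (adjusted p = 0.949) against p53R172H/+. Against p53-/- it was 0.43 without p53R172H/- tumors 2 and 3, where 1 tumor is left in the group, and 0.30 without p53-/- tumor 2. A second probe set of Sdhd gave 0.20.

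Sdhc, the other membrane anchor, read 923, 1087 and 898 signal units in p53R172H/- tumors, 913, 886 and 729 in p53R172H/+ tumors, and 847, 689 and 783 in p53-/- tumors. Again all p53R172H/- tumors lay above all p53-/- tumors, with a log2 fold change of 0.33 ± 0.13 (SE, limma adjusted p = 0.283), and of 0.26 without p53R172H/- tumors 2 and 3. Sdha, the flavoprotein that oxidises succinate, read 1176, 1612 and 1333 in p53R172H/- tumors, 1276, 1116 and 1227 in p53R172H/+ tumors, and 1138, 1184 and 1229.7 in p53-/- tumors. Tumors 2 and 3 of the p53R172H/- group were its highest, and tumor 1 lay within the range of the p53-/- tumors. Its log2 fold change was 0.20 ± 0.12 (SE, limma adjusted p = 0.414) with all tumors and -0.01 without p53R172H/- tumors 2 and 3. On the second Sdha probe set it was 0.60 with all tumors. Sdhb, the iron-sulfur subunit, read 1544, 2526 and 1864 in p53R172H/- tumors, 1802, 1649.8 and 1908 in p53R172H/+ tumors, and 2073, 1641 and 1673 in p53-/- tumors. It was highest in p53R172H/- tumor 2 and lowest in tumor 1 of the same group, and its log2 fold change was 0.12 ± 0.17 (SE) with all tumors and -0.21 without p53R172H/- tumors 2 and 3.

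**Figure D3:**
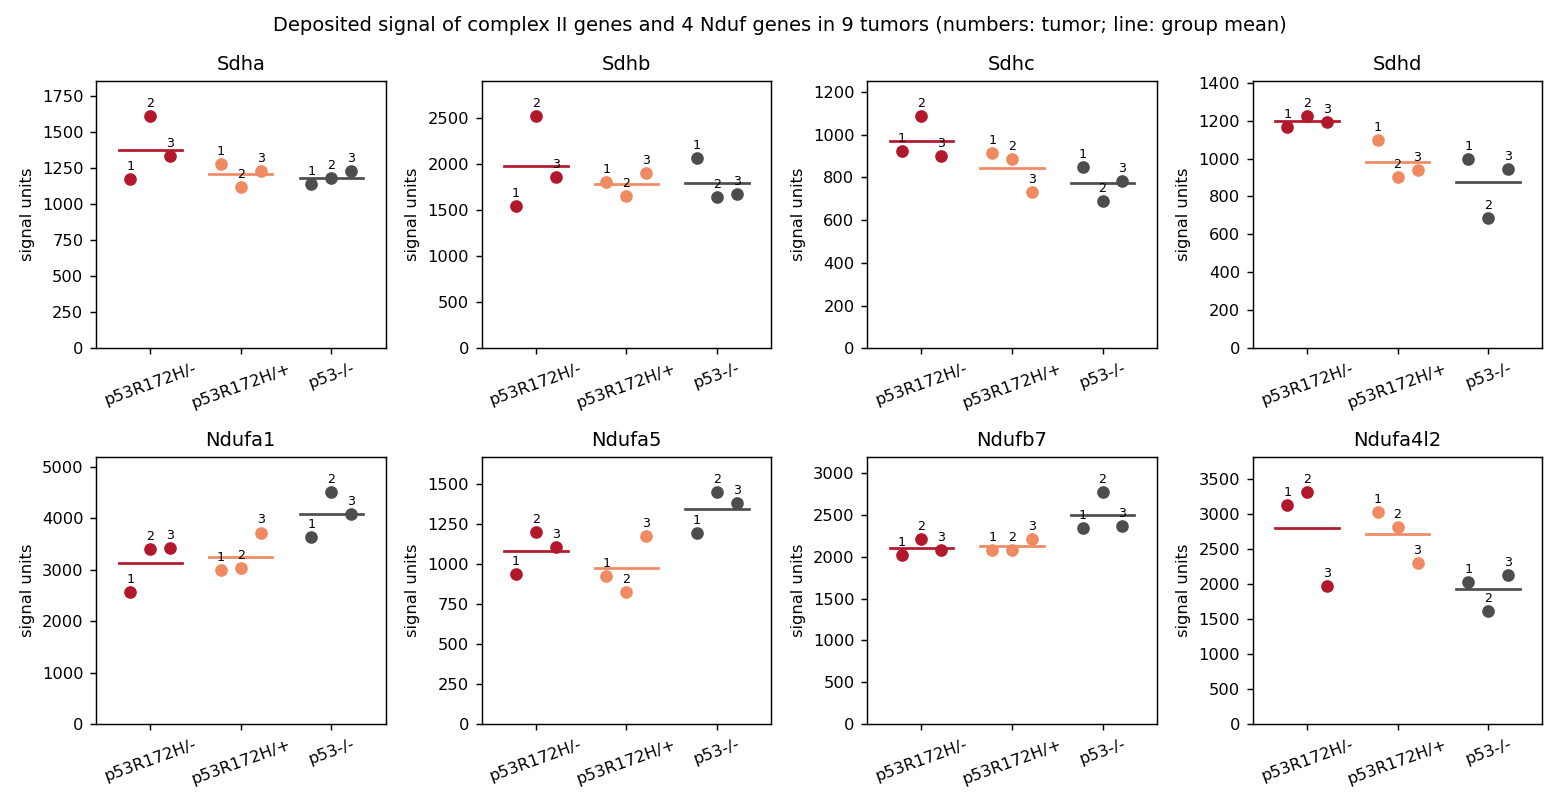
Signal in array units (linear axis from 0) of the complex II genes and 4 Nduf genes in each tumor, by genotype group, with tumor numbers beside the points and the group mean as a line. Group means of Sdhd and Sdhc are highest in p53R172H/- tumors, those of Ndufa1, Ndufa5 and Ndufb7 in p53-/- tumors, and Sdhb and Ndufa4l2 spread widely within the p53R172H/- group.

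The promoter of Sdhd is shown because Sdhd had the lowest p of the members in p53R172H/- against p53-/- tumors. It was also chosen because its window holds motifs that are more frequent in member windows than in all promoter windows. Most member windows lack each of these motifs. The window runs over 250 bases before and 50 after the RefSeq start on GRCm38.p6, at chr9:50603800-50604099 on the minus strand, written in the direction of the gene. Capitals mark, in this order, an NRF1 motif, an ETS motif and an ERR motif.
Sdhd: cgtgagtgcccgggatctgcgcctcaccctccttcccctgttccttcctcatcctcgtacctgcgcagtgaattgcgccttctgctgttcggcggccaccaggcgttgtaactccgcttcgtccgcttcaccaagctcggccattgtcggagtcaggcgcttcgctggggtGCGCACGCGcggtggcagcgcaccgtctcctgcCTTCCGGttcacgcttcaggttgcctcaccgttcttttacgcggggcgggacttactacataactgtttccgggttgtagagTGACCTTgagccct
The letters searched on both strands were GCGCANGCG for NRF1, CCGGAAG for ETS, AAGATGGCG for YY1, AAGGTCA for ERR, CAGCTG for an E-box and TATAAA for a TATA box, and MEF2 was searched by its consensus. Of the 90 members 74 had such a window, with 79 windows in all. Leaving out the muscle isoforms, the NRF1 motif was in 27.3% of 77 member windows, against 6.25% of 32851 mouse promoter windows of the same length. The ETS motif was in 24.7% against 8.86%, the YY1 motif in 9.09% against 1.4%, and the ERR motif in 10.4% against 4.72%. The E-box was in 6.49% against 16.3% and the TATA box in 10.4% against 13.6%. A match is a run of letters and says nothing about binding in these tumors.

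Complex III showed no common side. Of 8 genes tested, 5 were higher on average in p53R172H/- than in p53-/- tumors (median log2 fold change 0.03) and 6 were higher in p53R172H/+ than in p53-/- tumors (median 0.08). Uqcrfs1, the Rieske iron-sulfur protein, read 3326, 3425 and 3258 signal units in p53R172H/- tumors, 3376, 2994 and 2912 in p53R172H/+ tumors, and 2816, 2844 and 3032 in p53-/- tumors. All 3 p53R172H/- tumors lay above the p53-/- tumors by a small step, 0.20 ± 0.08 (SE) on the log2 scale (limma adjusted p = 0.278). It was 0.20 without p53R172H/- tumors 2 and 3. The core proteins differed less, with Uqcrc1 at 0.01 and Uqcrc2 at 0.10 in the same comparison.

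Uqcrq, a small subunit that contacts cytochrome b, read 2762, 2981 and 3073 signal units in p53R172H/- tumors and 3385, 3342 and 3994 in p53R172H/+ tumors. Uqcr11, another small subunit, read 1886, 2315 and 2376 in p53R172H/- tumors and 2496, 2608 and 2760.1 in p53R172H/+ tumors. For both genes the 2 groups did not overlap, and p53R172H/- was the lower. Their log2 fold changes were -0.28 ± 0.11 and -0.26 ± 0.11 (SE), each with a limma adjusted p of 0.949. In p53-/- tumors Uqcrq read 2818, 3476 and 3433, which overlaps with both mutant groups.

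Complex IV varied little. Over its 10 tested genes the median range across the 9 tumors was 0.27 on the log2 scale, against 0.33 for complex III and 0.35 for complex V, and for Cox5a the highest tumor was 1.13 times the lowest. On average 9 of 10 were lower in p53R172H/- than in p53-/- tumors, with a median of -0.05, and in p53R172H/+ against p53-/- tumors 6 of 10 were lower, with a median of -0.04. The 9 were 5 without p53R172H/- tumor 1 and 6 without p53-/- tumor 2, with medians of -0.0021 and -0.01. Cox4i1, the form of subunit 4 made in most tissues, averaged 6236 ± 421 signal units in p53R172H/- tumors, 6385 ± 441 in p53R172H/+ tumors and 6496 ± 677 in p53-/- tumors (SD, n = 3 each). Cox5b averaged 7709 ± 395 in p53R172H/- tumors, 8038 ± 201 in p53R172H/+ tumors and 8017 ± 456 in p53-/- tumors (SD, n = 3 each). For both genes the differences were within the spread of the tumors. Cox7a2l, which takes part in joining complexes III and IV into supercomplexes, had a log2 fold change of -0.09 ± 0.12 (SE) in p53R172H/- against p53-/- tumors, with other probe sets of either sign.

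Ndufa4l2, the paralog of Ndufa4 that is known to be induced under low oxygen, was higher on average in both mutant groups. It read 3129.8, 3324 and 1969 signal units in p53R172H/- tumors, 3029, 2818 and 2301 in p53R172H/+ tumors, and 2036, 1619 and 2137 in p53-/- tumors. The p53R172H/+ tumors lay above all p53-/- tumors, while p53R172H/- tumor 3 lay among them. Its log2 fold change was 0.51 ± 0.20 (SE, limma adjusted p = 0.288) in p53R172H/- against p53-/- and 0.49 ± 0.20 (adjusted p = 0.46) in p53R172H/+ against p53-/-. Ndufa4 itself had 0.14 ± 0.12 and 0.16 ± 0.12 (SE) in these comparisons, with overlapping groups, and 0.04 in p53R172H/- against p53-/- tumors without p53R172H/- tumors 2 and 3.

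The muscle isoforms of complex IV followed single tumors. Cox8b, the muscle form of subunit 8, read 63.1, 911 and 264 signal units in p53R172H/- tumors, 87.3, 53.1 and 159 in p53R172H/+ tumors, and 75.3, 129.6 and 102 in p53-/- tumors. Cox6a2, the muscle form of subunit 6a, read 341, 929.6 and 453 in p53R172H/- tumors, 341, 361 and 417 in p53R172H/+ tumors, and 359, 415 and 388 in p53-/- tumors. Cox7a1, the muscle form of subunit 7a, read 41.5, 489 and 133 in p53R172H/- tumors, 45.7, 33.9 and 59.2 in p53R172H/+ tumors, and 47.5, 59.4 and 60.7 in p53-/- tumors. For all 3 genes p53R172H/- tumor 2 was the highest of the 9 and tumor 3 the second, while tumor 1 of the same group was among the lowest. Those are the 2 tumors with the highest muscle markers, in the same order.

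The log2 fold change of Cox8b was 1.31 ± 0.81 (SE, limma adjusted p = 0.441) in p53R172H/- against p53-/- tumors and 1.45 ± 0.81 (adjusted p = 0.949) against p53R172H/+ tumors. With the muscle marker level as a covariate these were 0.26 and 0.01. Cox8b passed the filter on dim signal only through the p53R172H/- tumors in which it was high, so its testing there is not independent of that difference. For Cox6a2 the log2 fold changes were 0.44 ± 0.30 (SE) and 0.50 ± 0.30 (SE), and without p53R172H/- tumors 2 and 3 they were -0.18 and -0.12. Cox7a1 was too dim to be tested, and 4 of its 9 values lay at or under the floor of 52.6 signal units that was set before taking logs.

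**Figure D4:**
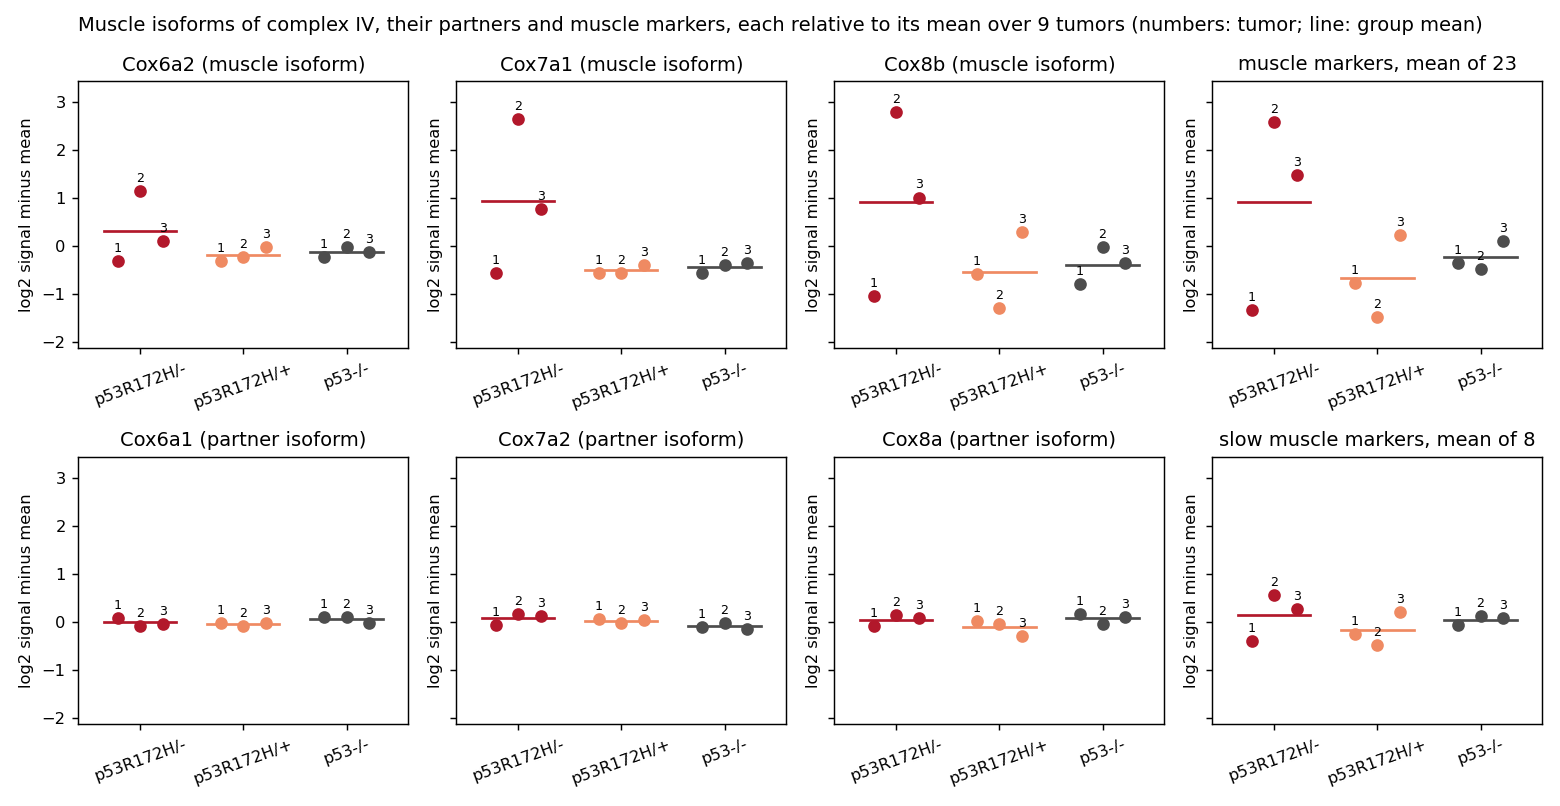
Log2 signal minus the mean over 9 tumors for the muscle isoforms of complex IV and the list of 23 skeletal muscle markers (upper row), and for the partner isoforms found in most tissues and the slow muscle marker list (lower row), by genotype group, with tumor numbers and group means. The muscle isoforms and the marker list are high in p53R172H/- tumors 2 and 3, and the partner isoforms stay close to their mean in all 9 tumors.

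The partner isoforms varied over a narrower range. Cox8a, the partner of Cox8b, read 2569.7, 3021 and 2888 signal units in p53R172H/- tumors, 2743, 2634 and 2213 in p53R172H/+ tumors, and 3035, 2651 and 2926 in p53-/- tumors. Cox6a1 averaged 8613 ± 532 in p53R172H/- tumors, 8397 ± 183 in p53R172H/+ tumors and 9054 ± 453 in p53-/- tumors (SD, n = 3 each). Cox7a2 read 6076, 7125 and 6944 in p53R172H/- tumors, 6654, 6236 and 6514 in p53R172H/+ tumors, and 5879, 6204 and 5747 in p53-/- tumors. Like its muscle form Cox7a1, it was highest in p53R172H/- tumor 2 and next highest in tumor 3, on both of its probe sets, and Cox8a too was higher in those tumors than in tumor 1 of the group. The log2 fold change of Cox7a2 in p53R172H/- against p53-/- tumors was 0.17 ± 0.07 (SE, limma adjusted p = 0.309) on its brightest probe set and 0.30 on the second. Without p53R172H/- tumors 2 and 3 it was 0.03. The highest tumor was 1.14 times the lowest for Cox6a1, 1.24 times for Cox7a2 and 1.37 times for Cox8a, against 2.73 times for Cox6a2. No such ratio is given for Cox8b and Cox7a1, whose lowest values were close to or under the floor.

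The promoter windows of Cox8b and Cox8a and of Cox7a1 and Cox7a2 are shown so that the muscle form of each subunit can be read beside its partner. They come from RefSeq on GRCm38.p6, in the direction of the gene, with Cox8b at chr7:140900397-140900696 on the minus strand, Cox8a at chr19:7217567-7217866 on the minus strand, Cox7a1 at chr7:30183921-30184220 on the plus strand and Cox7a2 at chr9:79759804-79760103 on the minus strand. Capitals mark E-box and TATA letters in Cox8b and ETS letters in Cox8a, and the Cox7a1 and Cox7a2 windows hold none of the motifs searched.
Cox8b: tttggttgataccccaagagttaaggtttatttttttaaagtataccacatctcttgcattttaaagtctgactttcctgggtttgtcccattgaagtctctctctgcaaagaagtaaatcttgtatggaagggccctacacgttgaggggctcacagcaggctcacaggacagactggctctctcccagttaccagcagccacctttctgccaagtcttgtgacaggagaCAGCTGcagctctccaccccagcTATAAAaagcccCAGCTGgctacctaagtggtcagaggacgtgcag
Cox8a: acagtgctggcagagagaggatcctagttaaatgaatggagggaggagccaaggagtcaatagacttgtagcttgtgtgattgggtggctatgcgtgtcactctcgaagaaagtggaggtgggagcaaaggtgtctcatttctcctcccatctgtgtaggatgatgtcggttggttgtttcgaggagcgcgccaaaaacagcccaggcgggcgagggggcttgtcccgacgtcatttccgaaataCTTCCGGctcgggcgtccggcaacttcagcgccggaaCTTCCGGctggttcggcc
Cox7a1: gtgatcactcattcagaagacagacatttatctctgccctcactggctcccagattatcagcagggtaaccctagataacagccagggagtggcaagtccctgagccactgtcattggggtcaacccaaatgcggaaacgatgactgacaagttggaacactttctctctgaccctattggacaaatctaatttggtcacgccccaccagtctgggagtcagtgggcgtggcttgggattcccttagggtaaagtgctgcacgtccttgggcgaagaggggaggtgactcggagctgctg
Cox7a2: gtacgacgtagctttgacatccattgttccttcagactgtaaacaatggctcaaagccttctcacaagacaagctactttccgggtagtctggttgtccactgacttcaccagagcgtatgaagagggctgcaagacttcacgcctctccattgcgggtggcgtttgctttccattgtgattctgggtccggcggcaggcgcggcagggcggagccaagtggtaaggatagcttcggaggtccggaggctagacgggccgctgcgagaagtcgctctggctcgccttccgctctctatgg

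Complex V genes lay on both sides of zero. Of 17 tested, 10 were lower on average in p53R172H/- than in p53-/- tumors (median log2 fold change -0.03) and 11 were lower in p53R172H/+ than in p53-/- tumors (median -0.03). Without p53R172H/- tumors 2 and 3, 13 were lower in p53R172H/- than in p53-/- tumors (median -0.09), and 8 were without p53R172H/- tumor 1. The catalytic subunit gene Atp5b read 7394, 7226 and 7226 signal units in p53R172H/- tumors, 7133, 6479 and 6506 in p53R172H/+ tumors, and 6627, 5925 and 6721 in p53-/- tumors. All 3 p53R172H/- tumors lay above the other 6, with a log2 fold change of 0.18 ± 0.07 (SE, limma adjusted p = 0.282) against p53-/-. Atp5a1, its partner in the catalytic head, had 0.24 ± 0.11 (SE, limma adjusted p = 0.339) on its brightest probe set. Its second probe set, at 3926 to 5057 signal units, gave 0.07 for p53R172H/- and -0.12 for p53R172H/+ against p53-/-. The dimmest probe set of Atp5a1 had the opposite sign to the brightest in both comparisons with p53-/-, at -0.37 for p53R172H/- and -0.64 for p53R172H/+. It read only 134 to 253 signal units, against 4915 to 7050 on the brightest.

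Atp5md, a small subunit of the membrane part, read 2766, 2947 and 2794 signal units in p53R172H/- tumors, 2715, 2617 and 2672 in p53R172H/+ tumors, and 2906, 3299 and 3158 in p53-/- tumors. The p53R172H/+ tumors lay below all others, with a log2 fold change of -0.22 ± 0.07 (SE, limma adjusted p = 0.383) against p53-/-. The genes of the proton-carrying ring of subunit c differed little. Atp5g1 had a log2 fold change of 0.13, Atp5g2 of 0.02 and Atp5g3 of 0.08 in p53R172H/- against p53-/- tumors, each with overlapping groups. Atp5o, in the stalk that holds the head, had -0.02.

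Set against each other, the mutant groups differed in few members. In p53R172H/- against p53R172H/+ tumors 1 member was higher and 4 were lower at an unadjusted p under 0.05, where 2% and 2.96% of all genes were. Groups without overlap were found for 6 members in each direction, against 5.27% of all genes higher and 6.62% lower. The lower members were Ndufb8, Uqcrq, Ndufaf1 and Uqcr11, and the higher one was Ndufv1. The 4 lower members were 0 without p53R172H/- tumor 1 or without p53R172H/+ tumor 3. The higher ones were 7 without p53R172H/- tumor 1, 5 without p53R172H/+ tumor 1, and 0 when any 1 of p53R172H/- tumors 2 and 3, p53R172H/+ tumor 3 or p53-/- tumors 1 and 3 was left out. Ndufb8, in the membrane arm of complex I, read 2534, 2968 and 2722 signal units in p53R172H/- tumors, 3130.1, 3107 and 3659 in p53R172H/+ tumors, and 3016, 3442 and 3229.5 in p53-/- tumors. All other tumors were above the p53R172H/- tumors, with a log2 fold change of -0.27 ± 0.10 (SE, limma adjusted p = 0.949) against p53R172H/+.

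The fuel side of the chain gave the following values. Of 16 citric acid cycle and pyruvate dehydrogenase genes tested, 13 were higher on average in p53R172H/- than in p53-/- tumors, with a median log2 fold change of 0.06 and 4 at an unadjusted p under 0.05. Of all genes 5328 of 12167 were higher on average in that comparison and 6.44% were higher at that p. Without p53R172H/- tumors 2 and 3, 7 of the 16 were higher (median -0.01, 1 at that p). Between p53R172H/+ and p53-/- tumors 8 of 16 were higher in p53R172H/+, with a median of -0.01, and in p53R172H/- against p53R172H/+ tumors 15 of 16 were higher, with a median of 0.14. Between the mutant groups 12 of 16 were higher without p53R172H/- tumors 2 and 3 (median 0.04), and without p53-/- tumor 2, 4 of 16 were higher in p53R172H/+ than in p53-/- tumors. Idh3a, a subunit of the NAD-linked isocitrate dehydrogenase, read 2345, 2141 and 1985 signal units in p53R172H/- tumors, 2026, 1886 and 1913 in p53R172H/+ tumors, and 1564, 1420.0 and 1771 in p53-/- tumors. All 6 mutant tumors lay above the p53-/- tumors, with a log2 fold change of 0.45 ± 0.10 (SE, limma adjusted p = 0.214) in p53R172H/- against p53-/-, and 0.57 without p53R172H/- tumors 2 and 3. Cs, the citrate synthase, read 1923, 2553 and 2346 in p53R172H/- tumors, 1792, 1622 and 1866 in p53R172H/+ tumors, and 2379, 2266 and 2219 in p53-/- tumors. It was lowest in all 3 p53R172H/+ tumors, and within the p53R172H/- group it was highest in tumors 2 and 3.

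Of genes encoded in the mitochondrial DNA only ND5, a core subunit of complex I, was named on the array. It read 10604, 12237 and 11009 signal units in p53R172H/- tumors, 10242, 9417 and 7991 in p53R172H/+ tumors, and 10415, 8941 and 10051 in p53-/- tumors. Its level was above all others in the p53R172H/- tumors, with log2 fold changes of 0.20 ± 0.10 (SE, limma adjusted p = 0.366) against p53-/- and 0.30 ± 0.10 (adjusted p = 0.949) against p53R172H/+. The values were 0.12 and 0.21 without p53R172H/- tumors 2 and 3. Of 19 further chain and assembly genes outside the symbol rule, 8 were higher and 11 lower in p53R172H/- than in p53-/- tumors (median -0.01). Sco2, which delivers copper to complex IV and is a known p53 target, read 286, 272 and 295 in p53R172H/- tumors, 298, 357 and 387 in p53R172H/+ tumors, and 363, 446 and 408 in p53-/- tumors. Its 3 lowest values were those of the p53R172H/- tumors, with a log2 fold change of -0.51 ± 0.12 (SE, limma adjusted p = 0.214) against p53-/-, and -0.50 without p53R172H/- tumors 2 and 3. Of 35 mitochondrial ribosome genes 18 were higher and 17 lower in p53R172H/- than in p53-/- tumors (median 0.01), and of 14 regulators of mitochondrial biogenesis 7 were higher and 7 lower (median -0.04).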

How the data were processed

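Total RNA of 9 oral tumors was hybridised to 1 Affymetrix array each. The authors deposited a linear signal intensity for every probe set on every array, made with MAS5 per the submitters' processing notes, with version and scaling not given in the sources used here. Of 45101 probe sets 64 are controls, 34945 have 1 symbol, 932 have several and 9160 have none. The members read out on 179 probe sets, and 10 more with several symbols were not used. The labels were not checked against the level of the targeted gene, which is not reported.

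Values under the 20th percentile (52.6) were raised to it before log2, with no further normalization. The brightest probe set stood for a gene, and genes with a mean under 113, the median over probe sets, were not tested. Group means were fitted to all 9 arrays in R 4.3.3 with lmFit of limma 3.58.1, followed by eBayes with its trend option, giving two-sided p-values with Benjamini-Hochberg adjustment over 12167 genes and a threshold of 0.05. The fit was tested on simulated data with independent noise and changes larger than most differences given here. That test does not show how well differences of the size given here would be found.

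The members and all gene lists were chosen with earlier results of these data known. Named genes were, per comparison and direction, the 4 members of smallest p, together with isoform pairs, core subunits and up to 2 genes of each other list. Alternatives changed the normalization, floor, filter, probe set, variance model, samples, covariates and block. All 90 member symbols matched the RefSeq gene table, and 74 had a window in its promoter table.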

Additional observations from a re-analysis of the deposited data

How the results depend on the processing

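No respiratory chain gene was called under any alternative, with a lowest adjusted p of 0.0621 (limma). Among all 12167 genes, the muscle marker level as a covariate gave 27 calls in p53R172H/- against p53-/-. With both p53R172H groups against p53-/- it gave 4, and 1 gene was called there without p53R172H/+ tumor 3. The median of the subunits in p53R172H/- against p53-/- was -0.15 without p53R172H/- tumors 2 and 3, and in p53R172H/- against p53R172H/+ it was -0.10 without those tumors and -0.083 with the muscle marker level as a covariate. With each tumor left out in turn the medians ranged over -0.10 to 0.0037 for p53R172H/- against p53-/-, -0.05 to 0.01 for p53R172H/+ against p53-/-, -0.05 to 0.06 for p53R172H/- against p53R172H/+ and -0.07 to -0.01 for both against p53-/-. Unadjusted counts moved with covariates and probe sets. The share of all genes at an unadjusted p under 0.05 is given only for the fit with all tumors and no covariate. Counts of members under the alternatives, here and above, therefore have no background beside them. In p53R172H/- against p53-/- the 8 lower members were 17 with the muscle covariate, 14 without p53R172H/- tumors 2 and 3, 5 with the ratio of 3' to 5' Gapdh probe sets as a covariate and 3 on second probe sets. The 10 of p53R172H/+ against p53-/- were 3 with that ratio and 3 on second probe sets. The 4 of p53R172H/- against p53R172H/+ were 13 with the muscle covariate. The counts on second probe sets rest on fewer members. Only 43 members had a further probe set that was tested, against 84 tested on the brightest. Those counts therefore cannot be set directly beside the 8 and the 10.

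Over 21 alternatives, 137 of 2569 single-gene values of the named genes had the opposite sign, and for 121 of these the value with all tumors and settings as reported was under 1 SE. Among differences given above, for p53R172H/- against p53-/-, Ndufab1 was 0.045 on the mean of its probe sets and 0.081 on the second, Atp5a1 was -0.016 on the mean, Cox7a2l was 0.10 on the second, and without p53R172H/- tumors 2 and 3 Cox6a2 was -0.18, Sdha -0.0093, Sdhb -0.21 and Atp5g2 -0.026. With the muscle covariate Sdhb was -0.057 and Atp5g2 -0.026, with quantile normalization Atp5g2 was -0.0013, and with the Gapdh ratio as a covariate Uqcrc1 was -0.019 and Atp5o 0.0054. With 1 tumor left out at a time, Cox7a2l ranged over -0.14 to 0.018, Atp5g2 ranged over -0.043 to 0.054, Sdhb ranged over -0.074 to 0.28, Uqcrc1 ranged over -0.052 to 0.048 and Atp5o over -0.065 to 0.042. For p53R172H/+ against p53-/- Ndufv1 was 0.00047 on the second probe set and also without p53R172H/- tumors 2 and 3, since that probe set is then the brightest. Without those tumors Cox6a2 was -0.12 in p53R172H/- against p53R172H/+. Where a group is left with 1 tumor, that tumor is assumed to vary like the other groups. Cox8b has no value without p53R172H/- tumor 2, where it falls under the filter, and genes with a single probe set have none on a second. Beyond these constructions the cause was not tested. Of 67 further probe sets of 43 members, 53 had the sign of the brightest in p53R172H/- against p53-/-, 47 in p53R172H/+ against p53-/- and 60 in p53R172H/- against p53R172H/+.

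The labels state no pairing by tumor number. Deviations from the group means correlated at -0.50 to 0.24 between same-numbered tumors and at -0.47 to 0.52 between differently numbered ones. With 3 tumors in a group this cannot tell whether the numbers pair the samples. With the tumor number as a block 0 members were called, the medians were -0.05, -0.02, 0.01 and -0.03 in the 4 comparisons, and the 10 lower members of p53R172H/+ against p53-/- were 6. The ratio of 3' to 5' Gapdh probe sets was 0.929 to 1.00 in p53R172H/- tumors, 0.938 to 0.981 in p53R172H/+ tumors and 0.961 to 1.03 in p53-/- tumors, and its part in the results was not tested beyond that covariate.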

Other observations

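Ndufb4, an accessory subunit of complex I, was too dim to be tested and was singled out after its values were seen. Its only probe set read 45.6, 48.6 and 41.7 signal units in p53R172H/- tumors, 83.0, 70.8 and 155 in p53R172H/+ tumors, and 82.6, 83.3 and 87.8 in p53-/- tumors. All 3 p53R172H/- tumors lay at the floor of 52.6. Cox7c, usually an abundant subunit of complex IV, read 58.0 to 95.3 on its brightest probe set, which was too dim to be tested. Cox7b2 lay at the floor in all 9 tumors.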
